A study of Mus musculus with 26 samples.

Results

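Ldhc and Tex19.2 are 2 germ cell genes whose transcripts were measured in single fully grown oocytes, and they are described here over 26 oocytes. They are rows TCONS_00090565 and TCONS_00021031, 2 of the 38540 transcripts in the deposited count table, and the names come from the study's own list of transcripts that separate its oocyte stages. Both were therefore picked for their difference between stages in these same oocytes, so that difference is given below as a description and carries no test. To enter that list, a gene also had to be among the differential genes of an earlier bulk comparison of the stages. That comparison had 1 sample per stage, and the study concludes that its stage labels were likely mis-assigned. Germinal vesicle (GV) oocytes are arrested in the first meiotic prophase, and they were scored by Hoechst staining of the nucleus. In non-surrounded nucleolus (NSN) oocytes the chromatin forms no ring around the nucleolus, in surrounded nucleolus (SN) oocytes the ring is complete, and in the intermediate oocyte it was partial. The oocytes came from 2 wild-type C57Bl6/Babr females aged 12 weeks, with cumulus cells taken off. The oocyte labels carry a letter, C or D, that was taken to stand for the mouse, since the study used 2 mice and the labels hold 2 letters, but the labels do not say so. Mouse C gave 5 of the 9 NSN and 9 of the 16 SN oocytes, and mouse D gave the other 4 NSN and 7 SN oocytes together with the 1 intermediate oocyte. Oocytes of a mouse share that animal, so comparisons between stages rest on the spread between oocytes of only 2 animals.

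Lactate dehydrogenase converts pyruvate and lactate into each other, and mammals have several subunits of it. Ldha and Ldhb are used by most tissues, while Ldhc is the germ cell subunit and is best known from spermatocytes and sperm. Oocytes depend on pyruvate supplied by the surrounding cumulus cells. Tex19.2 and its close relative Tex19.1 are rodent copies of a mammalian gene that is active in germ cells and early embryos, and Tex19.1 is known for holding retrotransposons in check. SN oocytes have stopped transcribing, whereas NSN oocytes still transcribe, and no new transcripts are made until after fertilization.

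In the GENCODE annotation of GRCm38, Ldhc (ENSMUSG00000030851.15) lies on the forward strand at chr7:46861203-46878142, with 5 annotated transcripts and up to 8 exons. Ldha lies 5575 bases upstream of it. Tex19.2 (ENSMUSG00000039337.3) lies on the reverse strand at chr11:121116215-121118677, with 1 annotated transcript of 3 exons, and Tex19.1, on the forward strand, begins 27465 bases from the start of Tex19.2. No other annotated gene overlaps either of them. None of the 1622 windows of 50 bases in the annotated Ldhc transcripts occurred in a transcript of another gene, and the longest run shared with Ldha was 20 bases. Tex19.2 shared 50 of 1997 such windows (2.50%) with Tex19.1, with a longest common run of 72 bases. Pieces of 50 bases from there cannot be told from Tex19.1. The study's reads were longer than that run before trimming, and whether any read was shared was not tested. The lengths and exons of the oocyte transcript models themselves were not used here, and the levels of the genes are not compared with each other for that reason.

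The 250 bases before the RefSeq start site of each gene are shown as a description. A link between them and the stage difference was not tested. Capitals mark TGACGT or its reverse complement ACGTCA, the first 6 letters of the cAMP response element that factors of the CREB and CREM family are known to bind. It was chosen after the sequences had been read. The Ldhc window is chr7:46861013-46861262 and the Tex19.2 window is chr11:121118678-121118927, both in GRCm38.p6 and both written along the strand of the gene:
Ldhc: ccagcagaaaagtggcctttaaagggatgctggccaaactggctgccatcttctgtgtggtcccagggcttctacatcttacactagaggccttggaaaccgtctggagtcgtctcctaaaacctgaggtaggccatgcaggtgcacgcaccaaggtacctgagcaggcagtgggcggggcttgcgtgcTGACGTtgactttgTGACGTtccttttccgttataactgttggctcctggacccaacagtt
Tex19.2: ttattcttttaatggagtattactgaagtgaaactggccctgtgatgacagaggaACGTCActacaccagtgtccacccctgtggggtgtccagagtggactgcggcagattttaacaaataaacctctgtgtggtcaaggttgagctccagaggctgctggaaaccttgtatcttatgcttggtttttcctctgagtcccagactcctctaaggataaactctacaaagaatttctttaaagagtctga

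The Ldhc window held 2 matches on its own strand, starting 61 and 47 bases before the RefSeq start site. The Tex19.2 window held 1 match on the opposite strand, 195 bases before it. Of 32851 RefSeq promoter windows of the same length, 6.47% held a match on either strand and 1.80% held at least 2, where a complete response element reads the same on both strands and counts as 2. The Ldhc window had 8 CG dinucleotides and the Tex19.2 window 2, against a median of 6. RefSeq lists 2 starts for Ldhc, and the GENCODE gene model begins upstream of the one used, inside the window. Against the GENCODE start, the farther Ldhc match spans the start and the nearer match lies within the gene, not before it. Which start site the oocytes used was not analysed here.

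Ldhc was detected in every oocyte and was lower in each SN oocyte than in each NSN oocyte. Levels are given in CPM, a transcript's counts per 1000000 counts of its oocyte. In NSN oocytes of mouse C, Ldhc was at 19.4, 26.97, 33.6, 34.7 and 52.3 CPM. In NSN oocytes of mouse D it was at 37.4, 46.1, 76.2 and 81.9 CPM. The 2 highest NSN oocytes were both from mouse D, and the lowest 4 were all from mouse C. In the 16 SN oocytes the level ran from 3.52 CPM in oocyte D-10 over a median of 9.20 to 17.4 CPM in oocyte D-9. The stages did not overlap, and the gap was narrow, since the lowest NSN oocyte was 1.12 times the highest SN oocyte.

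NSN oocytes averaged 45.4 ± 21.4 CPM of Ldhc (SD, n = 9). The average of SN oocytes was 8.81 ± 3.795 CPM (SD, n = 16), which makes the ratio of the means 5.16. On the fitted scale of edgeR, the log2 fold change from NSN to SN was -2.30 (SE 0.22). A transcript was tested where 9 or more oocytes had 3 or more counts of it. Of the 16657 tested transcripts, 1345 were lower in SN at an adjusted p under 0.05 in edgeR's quasi-likelihood test (8.07%) and 899 were higher, and Ldhc had the 107th lowest fold change. With library size as the only scaling, these counts were 1570 lower and 592 higher. The higher calls were 455 without NSN oocyte D-34, 576 without C-8 and 592 without C-12. Only 66 of the tested transcripts (0.396%) had every SN oocyte below every NSN oocyte, Ldhc among them. The rule chose Ldhc on this contrast, so these figures place the gene and support nothing. CPM is a share of an oocyte's counts, and less Ldhc RNA per oocyte cannot be told apart from a change in total RNA.

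**Figure D1:**
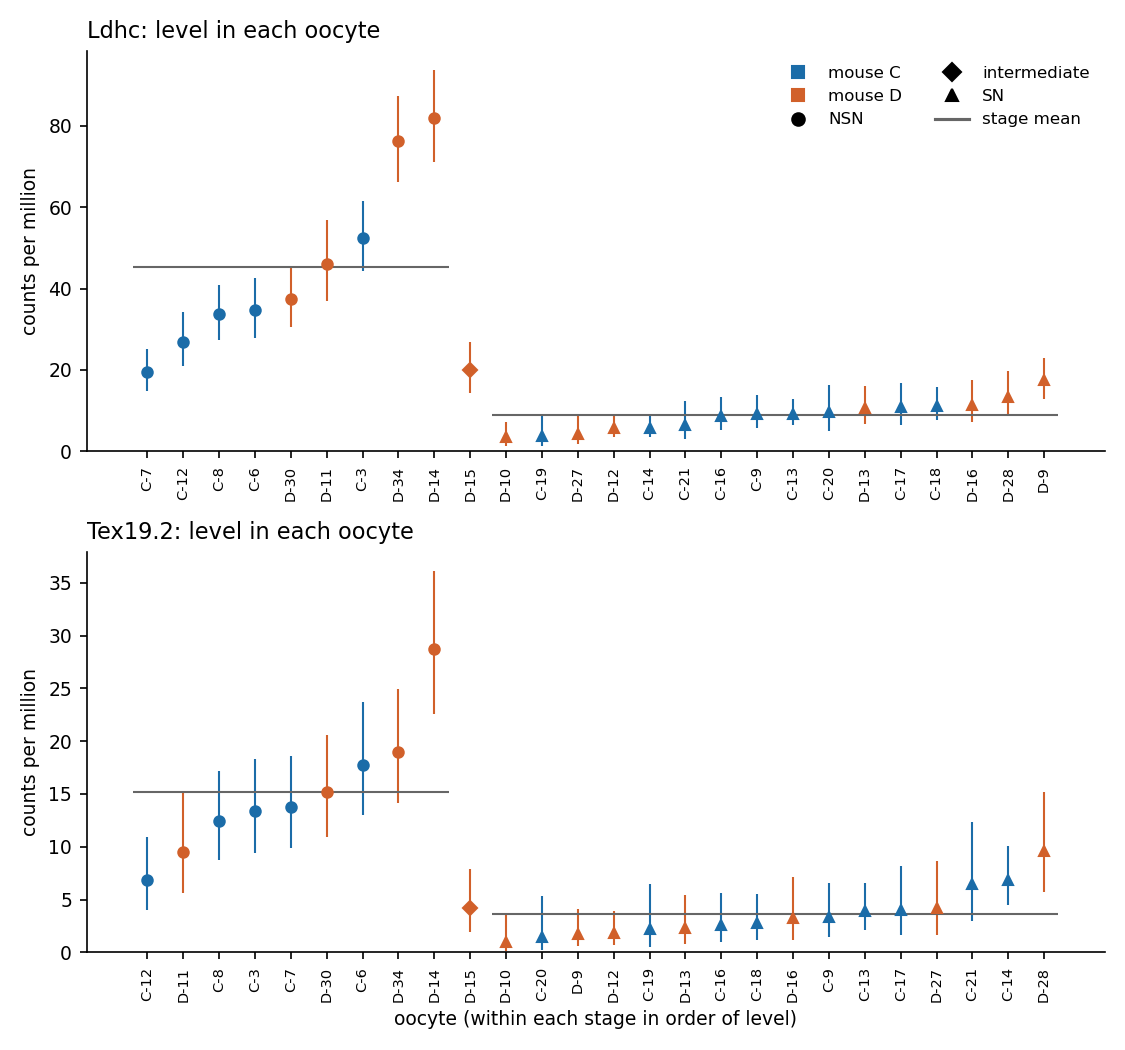
Level of Ldhc (upper panel) and Tex19.2 (lower panel) in each oocyte in CPM, on linear axes that start at 0. Each point is 1 oocyte with its exact 95% Poisson interval, colours give the mouse, shapes give the stage, and grey lines are the stage means. All 16 SN oocytes lie below the 9 NSN oocytes for Ldhc, and 14 of 16 do for Tex19.2.

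Tex19.2 was also detected in every oocyte and was lower in most SN oocytes, with a small overlap. In NSN oocytes of mouse C it was at 6.84, 12.4, 13.3, 13.7 and 17.8 CPM, and in those of mouse D at 9.54, 15.2, 18.95 and 28.8 CPM. In SN oocytes it ran from 1.004 CPM in D-10 over a median of 3.04 to 9.61 CPM in D-28. Oocyte D-10 had the lowest level of both genes. Of the 16 SN oocytes, 14 lay below every NSN oocyte, and the others were D-28 and C-14. D-28, at 9.61 CPM, lay above NSN oocytes C-12 (6.84 CPM) and D-11 (9.54 CPM). C-14 was at 6.85 CPM against 6.84 CPM in C-12, the lowest NSN oocyte, a difference far below the counting error of either. After TMM scaling, which adjusts for the make-up of each library, 15 of 16 lay below and D-28 alone did not.

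NSN oocytes averaged 15.2 ± 6.32 CPM of Tex19.2 (SD, n = 9). The average of SN oocytes was 3.602 ± 2.29 CPM (SD, n = 16), which makes the ratio of the means 4.21. The fitted log2 fold change was -2.01 (SE 0.26), the 173rd lowest of those tested. At least 14 SN oocytes lay below every NSN oocyte for 255 of the 16657 tested transcripts (1.53%). The median log2 fold change over all tested transcripts was 0.0063.

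Few reads stood behind the SN levels. Ldhc had 58 to 208 counts in NSN and 5 to 49 in SN oocytes, and Tex19.2 had 17 to 73 and 2 to 25. In oocyte D-10, the 2 counts of Tex19.2 gave an exact 95% Poisson interval from 0.122 to 3.63 CPM. In D-28, 18 counts gave 5.69 to 15.2 CPM, which overlaps the interval of the lowest NSN oocyte, 3.99 to 10.96 CPM. For Ldhc, the interval of D-9 (12.9 to 23.0 CPM) overlapped that of C-7 (14.8 to 25.1 CPM), so the order of these neighbours is within counting error although the stages did not overlap. The library has no molecular identifiers, and such intervals cover counting error only.

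Within a stage, the libraries varied by more than counting error. These libraries were amplified without molecular identifiers, so differences between oocytes cannot be told apart from those made in capture and amplification. The coefficient of variation of Ldhc was 47.1% in NSN oocytes, where counting error at the mean count would give 9.19%, and 43.1% in SN oocytes, where it would give 22.2%. For Tex19.2 it was 41.6% against 15.8% in NSN and 63.7% against 34.9% in SN oocytes. The highest NSN oocyte had 4.21 times the Ldhc level of the lowest, and for Tex19.2 this ratio was 4.20. On the log2 CPM scale the SD of Ldhc was 0.65 in NSN and 0.62 in SN oocytes, and that of Tex19.2 was 0.54 and 0.68. The biological coefficient of variation in edgeR, as a proportion, was 0.362 for Ldhc where transcripts of that abundance had a trend of 0.262, and 0.385 for Tex19.2 where the trend was 0.336.

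The single intermediate oocyte, D-15, had different places in the order of the genes. It had 43 Ldhc counts, or 19.9 CPM (exact 95% Poisson interval 14.4 to 26.8), above all 16 SN oocytes and above 1 of 9 NSN oocytes. With 9 counts, its Tex19.2 level was 4.16 CPM (1.90 to 7.90), below all 9 NSN oocytes and above 12 of 16 SN oocytes. Its Ldhc level was 0.438 times the NSN mean and its Tex19.2 level 0.274 times. With 1 oocyte there is no replicate, and its intervals reach into the SN range for both genes and into the NSN range for both.

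The letter in the labels, taken as the mouse, is the only batch they give. It was not part of the choice of the genes, so its effect was tested. In NSN oocytes Ldhc averaged 33.4 ± 12.2 CPM (SD, n = 5) in mouse C and 60.4 ± 22.0 CPM (SD, n = 4) in mouse D, and 1 oocyte of mouse C lay above 2 of mouse D. A two-sided exact permutation test over the 126 splits gave p = 0.0635 (0.254 after Benjamini-Hochberg adjustment over the 4 comparisons of gene and stage). In SN oocytes the means were 8.28 ± 2.47 CPM (n = 9) and 9.48 ± 5.19 CPM (n = 7), with an exact permutation p = 0.555 (adjusted 0.740). Tex19.2 averaged 12.8 ± 3.92 CPM in mouse C and 18.1 ± 8.08 CPM in mouse D at the NSN stage, with an exact permutation p = 0.246 (adjusted 0.492). At the SN stage it averaged 3.74 ± 1.85 and 3.43 ± 2.92 CPM, with an exact permutation p = 0.808 (adjusted 0.808). None of the 4 differences passed the test, which does not show that the mice were alike.

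Across both stages, edgeR gave a log2 difference of mouse D minus mouse C of 0.48 (SE 0.22) for Ldhc, with p = 0.0338 and an adjusted p of 0.416. For Tex19.2 it was 0.12 (SE 0.28), with an adjusted p of 0.929. Of the 16657 transcripts, 6 (0.036%) passed the adjusted threshold for the mouse and 1784 (10.7%) had an unadjusted p under 0.05. The count of 6 is not stable, since it was 26 without SN oocyte C-21, 21 without NSN oocyte D-14, 11 without C-6, 10 without C-9, 8 without D-34, 6 without D-12, and 0 or 1 without any other single oocyte. DESeq2 called 165 of 8001 for the mouse, without Ldhc, whose adjusted p there was 0.290, and gave Tex19.2 no adjusted p.

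Both genes were lower in SN oocytes in each mouse taken alone. The log2 fold change of Ldhc was -1.93 (SE 0.24) in mouse C and -2.61 (SE 0.32) in mouse D, and for Tex19.2 it was -1.68 (SE 0.30) and -2.42 (SE 0.42). Both were further from 0 in mouse D. Tested directly as an interaction, the stage difference of mouse D minus that of mouse C was -0.68 (SE 0.43) for Ldhc, with an adjusted p of 0.860 in edgeR, and -0.74 (SE 0.54) for Tex19.2, with an adjusted p of 0.873. By edgeR, 0 transcripts (0.0%) passed for this interaction, 994 (5.97%) had an unadjusted p under 0.05, and DESeq2 also called 0.

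**Figure D2:**
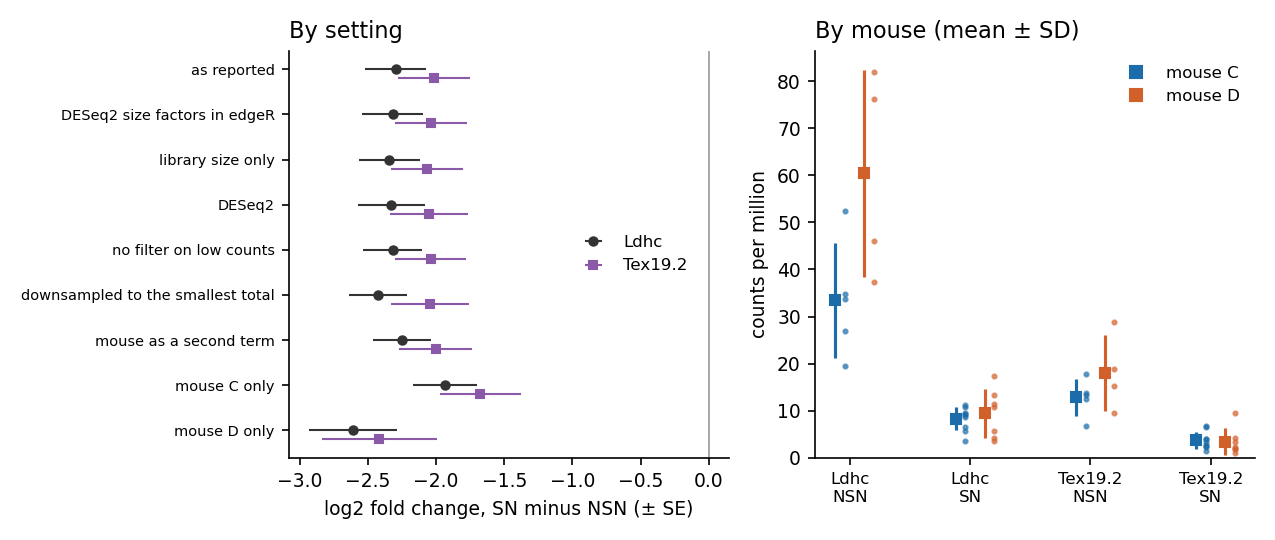
Left, log2 fold change from NSN to SN with its standard error for Ldhc and Tex19.2 under each way of scaling, filtering or fitting and in each mouse alone. Right, mean and SD of each gene in CPM for each stage and mouse, with every oocyte as a dot. Every fold change lies between -2.61 and -1.68, and the NSN means of mouse D, 60.4 for Ldhc and 18.1 for Tex19.2, have wider SDs than those of mouse C.

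Oocytes high in one gene were not regularly high in the other once the stage was set aside. Over the 9 NSN oocytes, log2 CPM of Ldhc and Tex19.2 had a Pearson r of 0.59 and a Spearman rho of 0.57, and without D-14 and D-34, the oocytes farthest from the median of Ldhc, r was 0.03. Over the 16 SN oocytes r was 0.18 and rho 0.17, and without D-10 and C-19 r was -0.17. The Pearson r in NSN thus depended on 2 oocytes of mouse D, which had the highest levels of both genes. Leaving out such oocytes narrows the range, which can by itself lower r, and rho was not recomputed. These values describe oocytes that share 2 animals and low counts and carry no p. The ratio of Ldhc to Tex19.2 counts within an oocyte ran from 1.41 in C-7 to 4.83 in D-11 in NSN (median 2.85), and from 0.84 in C-14 to 9.80 in D-9 in SN (median 2.96), while the intermediate oocyte had 4.78. The medians were close and the SN range was wider, at the lower counts of that stage.

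**Figure D3:**
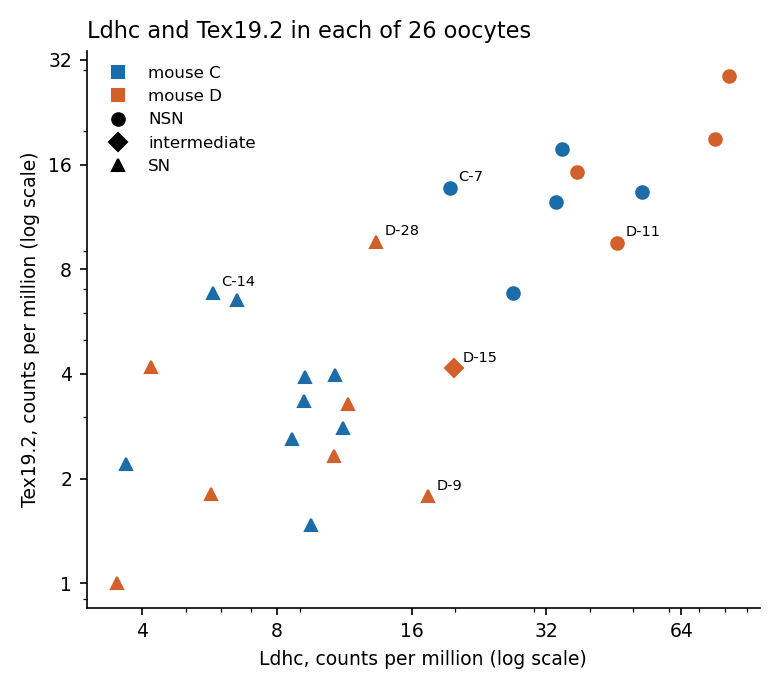
Ldhc against Tex19.2 in CPM, both on log axes, with 1 point for each of the 26 oocytes, colours for the mouse and shapes for the stage. NSN oocytes lie at the upper right and SN oocytes at the lower left, with D-28 and C-14 within the NSN range of Tex19.2. The intermediate oocyte D-15 is at 19.9 for Ldhc and 4.16 for Tex19.2.

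Library depth and the number of detected transcripts had a Pearson r with either gene of -0.22 to 0.42 within a stage. Total counts ranged from 1886716 to 2983344 in NSN and from 1358383 to 3647827 in SN oocytes. Pearson r of Ldhc with the log2 total was -0.22 over NSN and 0.23 over SN oocytes, and that of Tex19.2 was 0.31 and 0.05. With the number of detected transcripts, r was -0.22 and 0.18 for Ldhc and 0.42 and 0.13 for Tex19.2. Without the pair of oocytes farthest from the median of depth, or of detected transcripts, r ran from -0.25 to 0.45. The lowest was for Tex19.2 and total counts in SN, the highest for Tex19.2 and detected transcripts in NSN. These values rest on few oocytes and carry no p. With every library thinned to the total of the smallest one, the log2 fold change from NSN to SN was -2.42 (SE 0.21) for Ldhc and -2.04 (SE 0.29) for Tex19.2.

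The transcripts with the pattern most like each gene were sought among 300 other tested transcripts with a gene symbol, by Spearman rho of log2 CPM over the 25 NSN and SN oocytes. For Ldhc these were Hsph1, a heat shock protein of the Hsp110 family, and Eloa, a subunit of the elongation factor elongin, both with rho 0.88. Next came Snapc2, a subunit of the complex that starts small nuclear RNA transcription (0.88), 1110065P20Rik (0.87) and Maf1, a repressor of RNA polymerase III (0.84). For Tex19.2 they were the galactosyltransferase B4galt3 (0.88), Gm34597 (0.86), the zinc finger gene Zfp707 (0.85), the oocyte gene Nlrp4c (0.84) and the glycosyltransferase B3galnt1 (0.84). Most opposed were Kat6b (-0.74), a histone acetyltransferase, and Arl6ip1 (-0.72) for Ldhc, and Bcl2l10 (-0.85), a Bcl2 relative abundant in oocytes, and Rpia (-0.78), an enzyme of the pentose phosphate pathway, for Tex19.2. All 14 except Gm34597 belong to the study's list of stage-separating transcripts, so the shared stage difference sets much of these values. Tex19.2 itself was 28th of the 300 for Ldhc (0.76).

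With the median of each stage subtracted, the order rests on differences between oocytes of a stage. These include differences between the mice, which were not subtracted. Eloa (0.73) and Hsph1 (0.71) were then again the most like Ldhc, followed by 1110065P20Rik (0.64), Snapc2 (0.62) and Lrp12 (0.55), a receptor of the LDL receptor family. Among all 16656 other tested transcripts, with or without a name, Eloa was 1st and Hsph1 3rd. Eloa was at 46.0 ± 21.7 CPM in NSN and 15.6 ± 4.47 CPM in SN oocytes, and Hsph1 at 238 ± 43.4 and 116 ± 16.99 CPM (SD, n = 9 and 16). For Tex19.2 the values were lower, with B3galnt1 (0.61), Mrap (0.60), an accessory protein of the ACTH receptor, the arginine methyltransferase Prmt7 (0.60), 1700111N16Rik (0.57) and B4galt3 (0.57). Among all 16656 other transcripts, B3galnt1 was only 16th for Tex19.2 and Mrap 26th, so transcripts without a name were closer. Tex19.2 and Ldhc had rho 0.25 with each other on this basis, which put Tex19.2 at place 1837 of 16656 for Ldhc. These are the highest of many values over 25 oocytes and are descriptions.

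**Figure D4:**
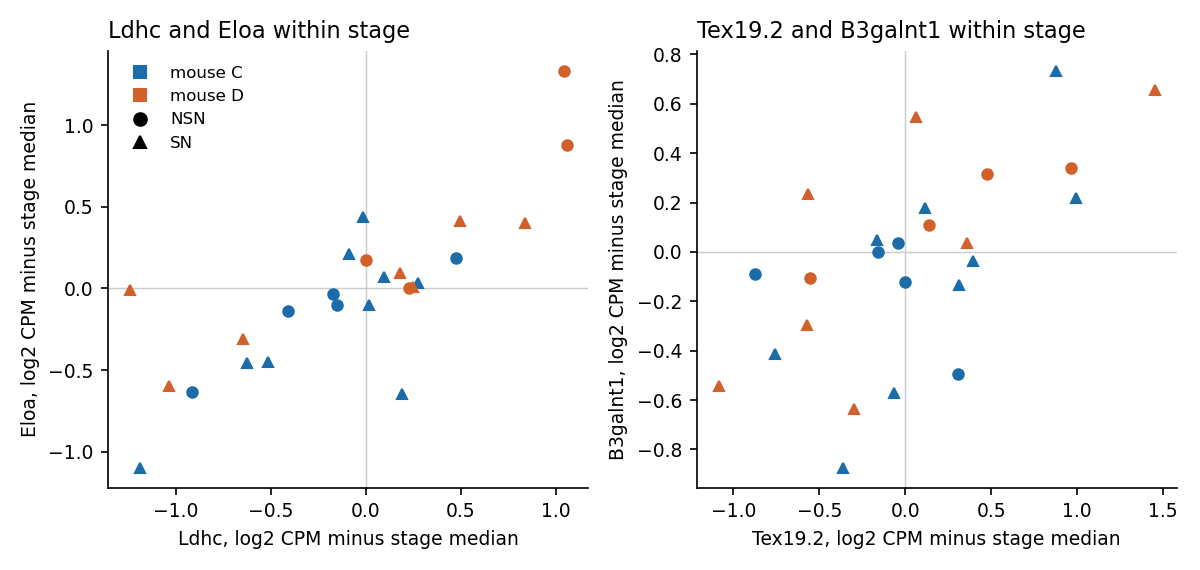
Log2 CPM minus the median of the oocyte's stage for Ldhc against Eloa (left) and Tex19.2 against B3galnt1 (right), the named transcript most like each gene within stages. Each point is 1 of 25 oocytes, colours give the mouse and shapes the stage. The points of Ldhc and Eloa rise together (rho 0.73), and those of Tex19.2 and B3galnt1 scatter more (rho 0.61).

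Few genes of the same pathways could be named in the count table, where names were at hand for 511 transcripts. Of 26 genes of lactate and pyruvate use, only Ldhc had a named row, and none of 26 glycolysis genes had one. Ldha, Ldhb and Tex19.1 could not be matched to a row and were not analysed here, and of 38 Tex genes only Tex19.2 was named. Of 37 genes of germline genome defence and related germ cell genes, 5 were named. Apart from Tex19.2 itself, whose stage difference carries no test, Gpat2 and Rad21l were tested, and both were lower in SN at an adjusted p under 0.05 in edgeR, as were 8.07% of all tested transcripts. Gpat2, an acyltransferase needed in the piRNA pathway, was at 13.7 ± 7.74 CPM in NSN and 4.08 ± 2.54 CPM in SN oocytes (SD, n = 9 and 16), with a log2 fold change of -1.63 (SE 0.30). Rad21l, a subunit of meiotic cohesin, was at 3.57 ± 2.54 and 0.815 ± 1.25 CPM, with -2.02 (SE 0.56). The other two, Mageb16 and Zfp42, had at most 6 counts in any of these oocytes. The study picked all 5 on these libraries for being lower or missing in SN oocytes, so their direction is not independent evidence. For Tex19.2 and Gpat2 it also required a place among the differential genes of the earlier bulk comparison. That place does not back the direction, since the study holds that comparison, which had no replicates, to be likely mislabelled.

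The cells carried oocyte transcripts in both stages. Of 48 oocyte genes, 10 were named and all were tested, with 6 lower and 4 higher in SN at an adjusted p under 0.05 in edgeR (13.5% of all tested transcripts passed in either direction), among genes that the study again picked on these libraries for separating the stages. Zp3, a protein of the zona pellucida, was at 3797 ± 875 CPM in NSN and 2420 ± 604 CPM in SN oocytes, and Nobox, an oocyte transcription factor, at 577 ± 102 and 403 ± 73.8 CPM. Bcl2l10 was at 1207 ± 134 and 1557 ± 193 CPM (SD, n = 9 and 16 throughout). Of 27 granulosa and cumulus cell markers only Amh and Hsd3b1 were named. Their summed level ran from 0.372 to 14.1 CPM in NSN and from 0 to 16.3 CPM in SN oocytes, and Amh had a count in 11 of 25 oocytes. The means of both moved the same way as Ldhc and Tex19.2, with Amh at 2.44 ± 3.26 CPM in NSN and 0.365 ± 1.04 CPM in SN oocytes, and Hsd3b1 at 4.17 ± 3.56 and 1.40 ± 2.98 CPM. Hsd3b1 had a log2 fold change of -1.43 (SE 0.61) with an adjusted p of 0.116 in edgeR, and Amh was under the count minimum of the test. The study had listed both as missing in SN oocytes. Their part in the levels of Ldhc and Tex19.2 was not tested.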

How the data were processed

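RNA from single GV oocytes was sequenced, and the authors used TrimGalore for trimming, HISAT2 2.1.0 for alignment to GRCm38 and SeqMonk for counting over a mouse oocyte transcriptome published earlier. They excluded shallow and outlying oocytes. The deposited values used here are raw counts per transcript, with no normalization. Strand use in counting is not given in the sources used here. The authors' deposited table of their own comparison (mean signal, log2 fold changes and p-values) was not used.

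Stage was read from the labels, the letter C or D in them was taken as the mouse, which they do not state, and 0 columns of samples were left unused. CPM was computed by column total, and log2 CPM used TMM scaling and a prior count of 2. Tests across transcripts used edgeR 4.0.16 (R 4.3.3; quasi-likelihood, stage alone, stage plus mouse, or stage by mouse) over transcripts that reached 3 counts in 9 or more oocytes, without the intermediate oocyte, with Benjamini-Hochberg adjustment at 0.05. Standard errors were derived from the F statistic. DESeq2 1.42.0 was an alternative, as were other scalings, no filter, thinning to the smallest total, single mice and leaving out each oocyte. For single mice, the filter asked for 3 counts in as many oocytes as the smaller stage held, 5 in mouse C and 4 in mouse D. The scripts were tested on simulated data. Single values were compared by exact permutation in Python 3.11.15. Across 156 pairs of oocytes of a stage, chi-square per degree of freedom ran from 2.78 to 21.6, and 0 pairs were identical.

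Symbols came from the study's lists for 365 transcripts and from GENCODE identifiers for 146. The genes named were Ldhc and Tex19.2, the 5 named transcripts most like each (also with stage medians subtracted), the 2 most opposed, and named members of fixed lists. The genes and lists were chosen with earlier results of these data known. The labels name no separate animals, so p-values measure the spread between oocytes. Promoter windows are RefSeq's.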

Additional observations from a re-analysis of the deposited data

Results flagged for a closer look

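SN oocyte D-28 had a Tex19.2 level of 9.61 CPM, which stood apart from the other 6 SN oocytes of mouse D, all at 1.004 to 4.18 CPM. The level rests on 18 counts, with an exact 95% Poisson interval from 5.69 to 15.2 CPM. Its Ldhc level, 13.3 CPM, was the second highest of the 16 SN oocytes. It was 1 value flagged in 10 groups of oocytes examined by Dixon's criterion for a sample far from the others, which flags about 5% of groups by chance.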

How the results depend on the processing

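The direction from NSN to SN was the same for Ldhc and Tex19.2 under every alternative run. The log2 fold changes moved most in the single-mouse fits, by more than their SE as reported. For Ldhc, -2.30 (SE 0.22) became -1.93 with mouse C only and -2.61 with mouse D only. For Tex19.2, -2.01 (SE 0.26) became -1.68 and -2.42. Leaving out each of the 25 oocytes in turn gave log2 fold changes from -2.42 to -2.15 for Ldhc and from -2.19 to -1.86 for Tex19.2. The number of transcripts past the threshold between stages fell from 2244 to 751 with mouse C only and 735 with mouse D only. Fewer oocytes entered those fits, and the filter asked for fewer of them. They tested 16878 and 16843 transcripts instead of 16657. For the mouse, 6 transcripts passed as reported, 0 with library size only, 165 with DESeq2 and 53 with no filter on low counts, and the cause was not tested. Over the fits that leave out 1 oocyte, the mouse difference of Tex19.2 had no stable sign, from -0.055 without SN oocyte D-28 (-0.036 without NSN oocyte D-14) to 0.24 without SN oocyte C-14, with adjusted p from 0.837 to 0.979 in edgeR. Thinned to the smallest total it was 0.25 (adjusted p 0.831 in edgeR). Over the same fits, that of Ldhc ran from 0.40 to 0.57, with adjusted p from 0.309 to 0.609. The interaction likewise ran from -0.89 to -0.48 for Ldhc and from -1.24 (without D-28) to -0.41 (without D-14) for Tex19.2, and none of these passed the threshold. Pearson r of the genes over SN oocytes turned from 0.18 to -0.13 after thinning to the smallest total. No paired analysis was possible because the labels number each oocyte on its own and tie no NSN oocyte to an SN oocyte beyond the mouse, which was fitted as a second term. Depth limits Tex19.2 most, with a median of 6.5 counts in SN oocytes.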
